A study of Saccharomyces cerevisiae with 4 samples.

Results

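The genes for the proteins of the large (60S) subunit of the cytosolic ribosome were examined in budding yeast for peaks of FLAG-tagged Acs2, the acetyl-CoA synthetase of the nucleus and cytosol. Nuclear protein-coding genes were taken by symbol, as RPL followed by a number or RPP followed by 0, 1 or 2, each with an optional copy letter. The symbols gave 82 of 6002 nuclear protein-coding genes. Among them was RPP1 (YHR062C), a subunit gene of the RNA-processing enzymes RNase P and RNase MRP and no ribosomal protein gene. It had no peak and is left out of the counts below, which leaves 81 genes. They comprise 35 paralog pairs and 11 single-copy genes.

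The large subunit forms peptide bonds and holds the tunnel through which the new protein leaves. Most of its proteins in yeast are encoded by a pair of near-identical genes left from an ancient genome duplication, and named A and B. In growing cells these genes are among the most heavily transcribed of RNA polymerase II, through promoters bound by Rap1, Fhl1, Ifh1 and Sfp1.

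An untagged strain and an Acs2-FLAG strain were cultured at 28 °C with 2% glucose as the carbon source in rich medium. They were harvested at an optical density between 0.7 and 1.0, after fixation with 1% formaldehyde. Each strain gave an input library, with no antibody, and a library precipitated with the FLAG M2 antibody, so that there were 4 groups of 1 library and no value has a replicate error. The labels do not give the strain background, and they do not say whether the tagged protein keeps its function. The deposited lists held 912 Acs2-FLAG peaks and 34 untagged peaks, of which 24 were nuclear. Values below are the authors' fold enrichments at the peak summit, on build R64. The range in brackets is a 95% interval that covers the counting error of the immunoprecipitate and holds the background fixed. The fragments behind each fold were recovered from the fold and its p-value, and the background at the members' summits was 291.1 to 361.4 fragments.

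An Acs2-FLAG peak met the region from 500 bp upstream of the start to the end at 62 of 81 large-subunit genes (76.5%, exact Clopper-Pearson interval over genes 65.8 to 85.3). The same rule was met by 20.6% of all nuclear protein-coding genes. With RPP1 counted the share was 75.6%. Peaks that shared no base with an untagged peak met 61 of the 81 genes, against 19.8% of all coding genes. The 81 genes were shorter than coding genes in general, with a median length of 795 bp against 1200 bp.

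The folds at these genes were mostly low. The median over the 62 genes was 1.47, with quartiles of 1.32 and 1.72, and 34 of them had a fold under 1.5. The median over all 1238 coding genes with a peak was 1.64. That larger set included 26.7% of genes whose peak had its summit in a tRNA or small nucleolar RNA (snoRNA) gene, against 9.68% of the large-subunit genes. Where the summit lay inside the gene itself, the median was 1.36 at 38 large-subunit genes and 1.38 at 424 coding genes. The highest member peak ranked 123rd of the 912. Peak width at the members had a median of 739 bp, and 562 bp over the whole list. These medians are not on a like basis, since a wide peak meets a gene region more readily than a narrow one.

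**Figure D1:**
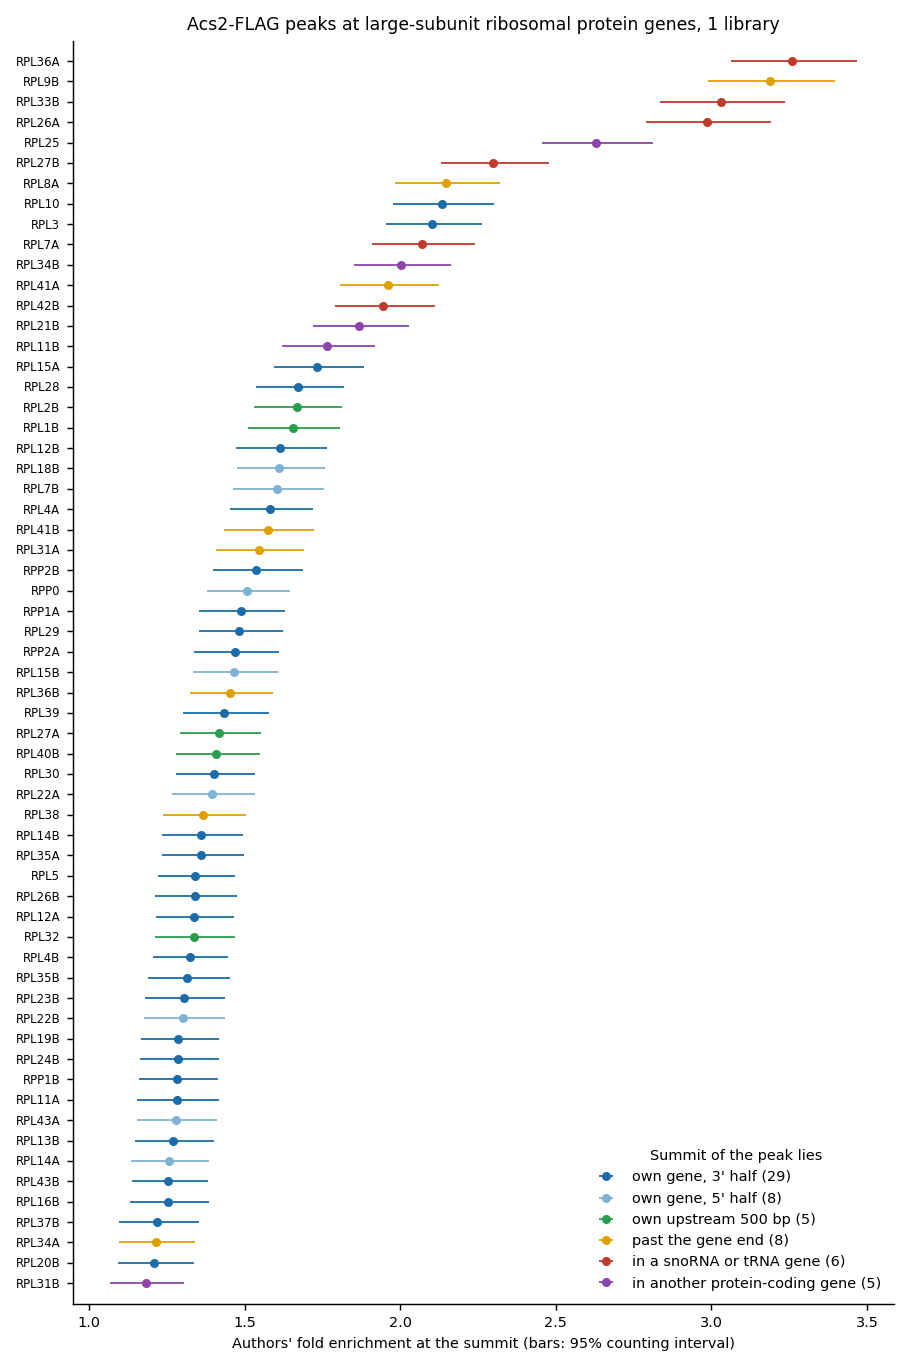
Authors' fold enrichment (horizontal axis) of the strongest Acs2-FLAG peak at 61 of the 62 large-subunit genes with a peak, in 1 library; bars are 95% counting intervals and colours give where the summit lies. Among the 11 genes at a fold of 2 or more, 2 had the summit in their own gene (RPL10 and RPL3), while folds of summits inside the gene otherwise ran from 1.21 to 1.73.

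The position of the summit separated the members into groups. It lay inside the member's own gene at 38 of the 81 genes, a state found at 7.15% of all coding genes. It lay past the annotated gene end at 8, in the upstream 500 bp at 5, in a snoRNA or tRNA gene at 6 and in another protein-coding gene at 5. Among genes with a peak, the share past the end was 12.9% at the members and 6.14% over all coding genes. In the upstream 500 bp it was 8.065% and 6.22%, and in another coding gene 8.065% and 23.7%. A summit in a snoRNA or tRNA gene was found at 7.41% of the 81 members, close to the 5.51% of all coding genes. Among genes with a peak, that share was 9.68% at the members and 26.7% over all coding genes. Over all genes, an upstream summit was found at 5 of 81 members and at 77 of 6002 coding genes. Whether the upstream and RNA-gene counts set the members apart thus depends on the base taken, and it was not tested.

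Among the 38 genes with the summit inside, RPL10 and RPL3 were the strongest. RPL10 encodes a protein needed for the subunits to join. Its gene (YLR075W, chromosome XII, 282927 to 283592) had a fold of 2.14 (1.98 to 2.30) from 675 fragments, with the summit 517 bp from the start of a 666 bp gene. RPL3 encodes a protein next to the peptidyl transferase centre. Its gene (YOR063W, chromosome XV, 444686 to 445849) had 2.10 (1.95 to 2.26) from 717 fragments, with the summit 770 bp into 1164 bp. RPL15A followed with 1.73 (1.59 to 1.88) and RPL28, the gene in which cycloheximide resistance arises, with 1.67 (1.54 to 1.82). The intervals of RPL10 and RPL3 overlapped each other and lay above that of RPL15A. The fold at RPL12B was 1.61, at RPL18B 1.61, at RPL7B 1.60 and at RPL4A 1.58. These 4 could not be ordered, since their intervals overlapped. RPL12 sits at the base of the stalk and RPL4 lines the exit tunnel.

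The genes of the stalk, which recruits the translation factors, all had the summit inside the gene. RPP0, the core of the stalk, had a fold of 1.51 (1.38 to 1.64). The acidic proteins that attach to it had 1.49 (1.35 to 1.63) at RPP1A, 1.28 (1.16 to 1.41) at RPP1B, 1.47 (1.34 to 1.61) at RPP2A and 1.54 (1.40 to 1.69) at RPP2B. The intervals of these 5 genes all overlapped, those of RPP1B and RPP2B by their margins.

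RPL5, whose protein carries the 5S ribosomal RNA, had 1.34 (1.22 to 1.47). Its partner RPL11 had 1.28 (1.15 to 1.42) at copy A. RPL39, a protein of the exit tunnel, had 1.43 (1.30 to 1.58) and RPL29 had 1.48 (1.35 to 1.62). RPL30, whose protein represses the splicing of its own transcript, had 1.40 (1.28 to 1.53). The remaining summits inside genes were at RPL15B and RPL22A (1.46 and 1.39), RPL14B and RPL35A (both 1.36), RPL26B and RPL12A (both 1.34), RPL4B (1.32), RPL35B (1.31), RPL23B and RPL22B (both 1.30), RPL19B (1.29), RPL24B and RPL43A (both 1.28), RPL13B (1.27), RPL14A, RPL43B and RPL16B (1.25 each), RPL37B (1.22) and RPL20B (1.21). The lowest −log10 p of the list, 2.54, corresponds to a fold of 1.16 at its lowest background of 291.1 fragments. A gene without a listed peak is therefore not shown to differ from one with a fold near this limit.

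The summits inside genes lay mostly past the midpoint, at 30 of the 38 genes (78.9%, exact Clopper-Pearson interval 62.7 to 90.4). Over all coding genes with the summit inside, this was the case for 260 of 424 (61.3%, 56.5 to 66.0), and over small-subunit genes for 13 of 25 (52.0%, 31.3 to 72.2). The difference between these shares was not tested. On a scale from 0 at the start to 1 at the end, the median position was 0.66 at the large-subunit genes, 0.60 over all coding genes and 0.55 at the small-subunit genes. The summit lay a median of 173 bp before the gene end at the large-subunit genes, with a range of 20 to 1190 bp, and 319.5 bp over all 424 coding genes with the summit inside, without adjustment for gene length. The longest distance was that of RPL7B, a 1551 bp gene with the summit 360 bp from the start and 315 bp from SNR59, the snoRNA gene inside it, which no peak met.

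**Figure D2:**
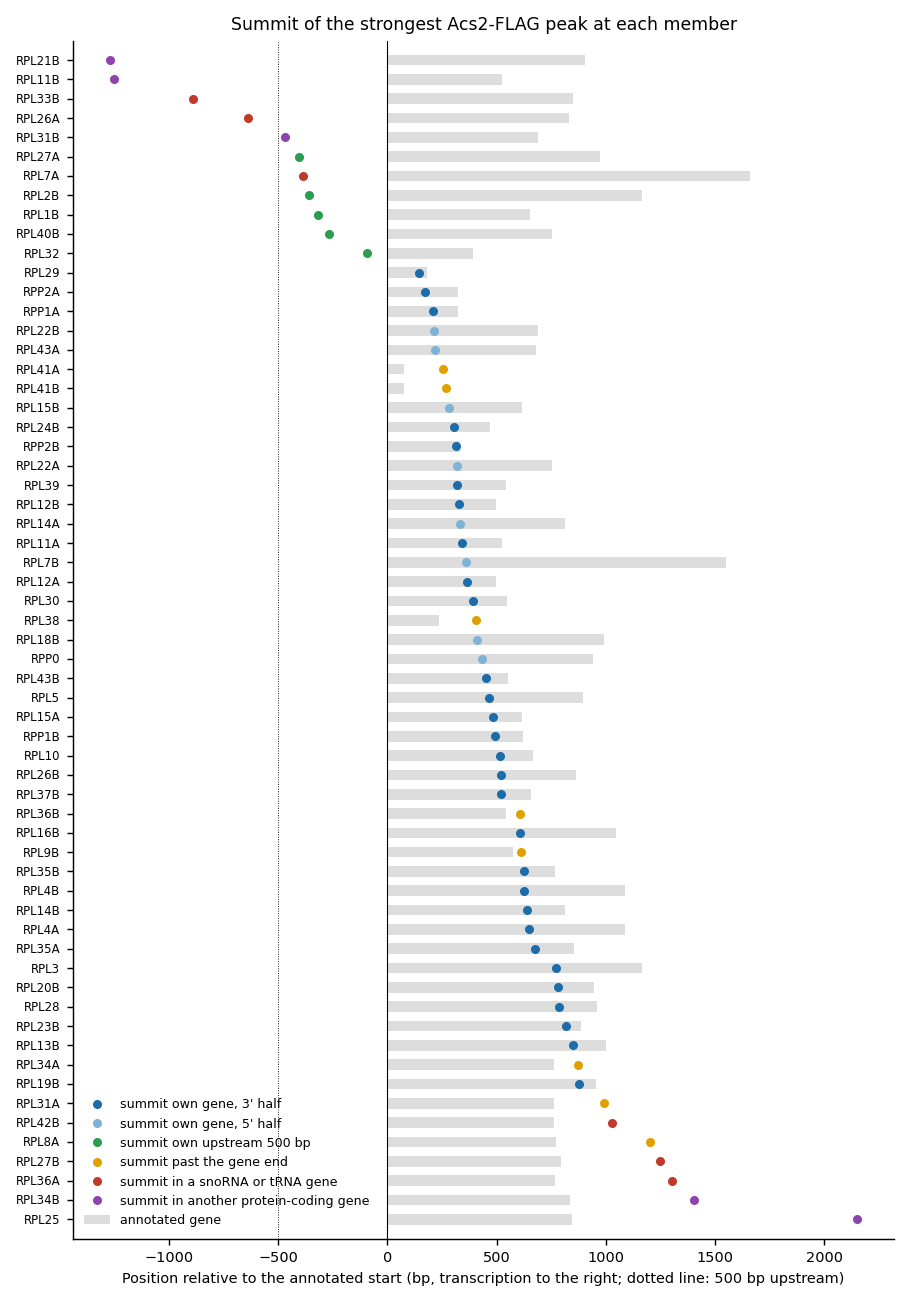
Summit of the strongest Acs2-FLAG peak relative to the annotated start (horizontal axis in bp, transcription to the right) at 61 of the 62 genes with a peak, with the gene drawn as a grey bar. At 29 of the genes drawn the summit lay inside the gene past its midpoint. Where no other coding, snoRNA or tRNA gene held it, the summit lay beyond the gene end at 8 and in the upstream 500 bp at 5. A snoRNA or tRNA gene held it at 6 and another coding gene at 5, on either side of the member.

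At 8 genes the summit lay past the annotated end with no annotated coding, tRNA or snoRNA gene under it. Annotated starts and ends appear to be those of the coding sequence, as in the 78 bp of the RPL41 genes. A summit past the end or upstream may therefore still lie in the transcript. The strongest was at RPL9B (YNL067W, chromosome XIV, 499681 to 500256), at 3.19 (2.99 to 3.40) from 948 fragments over a background of 296.8. This summit lay 35 bp past the end, the peak covered the whole gene, and the nearest tRNA or snoRNA gene was 18808 bp away. RPL8A (chromosome VIII, 35255 to 36025) had 2.15 (1.98 to 2.32), with the summit 432 bp past the end and 27932 bp from the nearest such RNA gene. RPL41A and RPL41B, which encode the shortest ribosomal protein in genes of 78 bp, had 1.96 (1.81 to 2.12) and 1.57 (1.43 to 1.72), with summits 176 and 193 bp past the end. RPL36B had 1.45 at 67 bp, RPL38 1.36 at 170 bp and RPL34A 1.21 at 110 bp past the end. RPL31A had 1.54 (1.41 to 1.69), with the summit 228 bp past the end and 1 bp from the snoRNA gene SNR63.

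The upstream region held fewer summits than the gene. The same was found over all coding genes with a peak (77 against 424) and at small-subunit genes (5 against 25). The strongest peak had its summit in the upstream 500 bp at RPL2B, RPL1B, RPL27A, RPL40B and RPL32. RPL2B, for a protein at the peptidyl transferase centre, had 1.67 (1.53 to 1.81) with the summit 357 bp before the start. RPL1B, for the protein of the mobile L1 stalk, had 1.65 (1.51 to 1.80) at 320 bp. RPL27A had 1.42 (1.29 to 1.55) at 403 bp, RPL40B, which encodes a fusion of ubiquitin with a ribosomal protein, 1.41 (1.28 to 1.55) at 266 bp, and RPL32 1.33 (1.21 to 1.47) at 95 bp. A second, weaker peak had its summit upstream at RPL38 (1.35, 279 bp) and RPL42B (1.33, 357 bp). In all, 7 members had an upstream summit outside any annotated tRNA, snoRNA or coding gene. At 6 of these 7, RPL32 excepted, the summit lay between 266 and 403 bp before the start.

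More than 1 peak met the region at 8 members. RPL2B and RPL27A each had a second peak with its summit in the gene past the midpoint. At RPL2B this peak had 1.43 (1.31 to 1.57), with the summit 855 bp from the start, and at RPL27A 1.34 (1.21 to 1.47) at 750 bp. The interval of the upstream peak overlapped that of the peak in the gene at both. RPL38 had 1.36 past the end and 1.35 upstream. RPL7A had 1.21 (1.10 to 1.34) in the gene, beside a stronger peak at a snoRNA gene upstream. RPL35A and RPL35B each had a peak in the gene and another from a neighbour. The neighbours were ARF1 with 1.33 (1.21 to 1.46) and ARF2 with 1.30 (1.18 to 1.43), themselves a pair of related genes for small GTPases of vesicle traffic.

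A snoRNA or tRNA gene held the summit at 6 members, and their folds of 1.94 to 3.26 were among the highest. The snoRNAs guide modification or cutting of ribosomal RNA. SNR11 held the summit of the RPL36A peak (RPL36A on chromosome XIII, 651145 to 651910), at 3.26 (3.06 to 3.47) from 1003 fragments. SNR17A, a gene of the U3 snoRNA, held that of RPL33B at 3.03 (2.83 to 3.24), 889 bp upstream of the start. TRR4, an arginine tRNA gene, held that of RPL26A at 2.99 (2.79 to 3.19), 639 bp upstream. SNR13 held that of RPL27B at 2.30 (2.13 to 2.48), SNR39B that of RPL7A at 2.07 (1.91 to 2.24) and SNR32 that of RPL42B at 1.94 (1.79 to 2.11). The RPL33B and RPL26A peaks did not reach the genes themselves. For comparison, the 257 peaks of the list with a summit in a tRNA gene had a median fold of 3.18 and the 34 with a summit in a snoRNA gene 1.93.

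Both RPL33 copies have a U3 gene beside them, and the loci differed. SNR17A, beside RPL33B, had the fold of 3.03, while SNR17B, beside RPL33A, had 1.25 (1.13 to 1.38), and that peak ended 428 bp short of the region of RPL33A. The counting intervals did not overlap. Because the copies of U3 are near-identical, reads may have been placed at either.

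At 5 members the summit lay in another coding gene. RPL25, whose protein binds near the tunnel exit, was met by the edge of a 2497 bp peak of 2.63 (2.46 to 2.81) with its summit in MDH2, the cytosolic malate dehydrogenase gene. RPL34B lay next to a summit of 2.00 (1.85 to 2.16) in GPP1, for glycerol phosphatase, and one of 1.79 (1.65 to 1.95) in MMF1. RPL21B was met by the peak of the small-subunit gene RPS9A at 1.87 (1.72 to 2.03), RPL11B by that of PIL1, for a protein of plasma membrane furrows, at 1.76 (1.62 to 1.92), and RPL31B by a peak of 1.18 (1.07 to 1.30) in the small open reading frame YLR406C-A. At RPL21B, RPL11B and RPL31B the peak did not overlap the gene itself. Where the summit itself had to lie within the region, 47 of the 81 genes had a peak, as did 30 of the 56 small-subunit genes. The share of all coding genes under this stricter rule is not given here, so the 47 cannot be set against it.

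No peak met 19 members. In 5 of them, RPL13A, RPL21A, RPL24A, RPL33A and RPL6B, the nearest peak began or ended within 1000 bp of the region. The closest was 55 bp from the region of RPL13A, the peak of its neighbour RPP1A. The other 14 were RPL16A, RPL17A, RPL17B, RPL19A, RPL1A, RPL20A, RPL23A, RPL2A, RPL37A, RPL40A, RPL42A, RPL6A, RPL8B and RPL9A. Their distances ran from 1019 bp at RPL16A to 21925 bp at RPL9A. On the other side of the rule, the smallest stretch of a strongest peak inside the region was 50 bp, at RPL38. A second peak of RPL38 lay wholly in its upstream 500 bp. The next smallest stretch was 91 bp, at RPL33B. Members without a peak were not shorter than those with one, with median lengths of 871 and 763 bp.

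Every single-copy gene had a peak, 11 of 11, and 51 of the 70 paired genes did. Among the 11, the RPL25 peak had its summit in MDH2 and shared bases with an untagged peak. The single-copy genes were RPL3, RPL5, RPL10, RPL25, RPL28, RPL29, RPL30, RPL32, RPL38, RPL39 and RPP0. Their median fold was 1.48, against 1.47 at the paired genes with a peak. The difference between single-copy and paired genes was not tested. For paired genes, the handling of reads that map to both copies is not given in the sources used here, so that a value at 1 copy is uncertain.

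Within the pairs, the copies were often unlike. Both copies had a peak in 18 of 35 pairs, 1 copy in 15, and neither in 2 (RPL6 and RPL17). Of the 15, the copy with the peak was B in 14 and A in 1, RPL8. In total 19 A copies and 32 B copies had a peak. Among 24 pairs of small-subunit genes the order was the other way round, with A alone in 9 pairs, B alone in 3, both in 9 and neither in 3. Over 32 other pairs of coding genes whose symbols differ in a last A or B, both had a peak in 13 and neither in 16. A alone had a peak in 1 of these 32 and B alone in 2. The letters are names given to the copies and stand for no common property, and the split was not tested.

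The 14 B copies with a peak alone were of different kinds. Their folds were 1.21 to 1.30 at RPL13B, RPL16B, RPL19B, RPL20B, RPL23B, RPL24B and RPL37B, where the summit lay inside the gene, past its midpoint. At RPL1B, RPL2B and RPL40B the summit was upstream, with folds of 1.65, 1.67 and 1.41. At RPL21B, RPL33B and RPL42B it lay in a neighbouring gene, with 1.87, 3.03 and 1.94. RPL9B, at 3.19, is described above. Its copy RPL9A had no peak in the region, and neither had RPL8B beside the 2.15 at RPL8A.

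**Figure D3:**
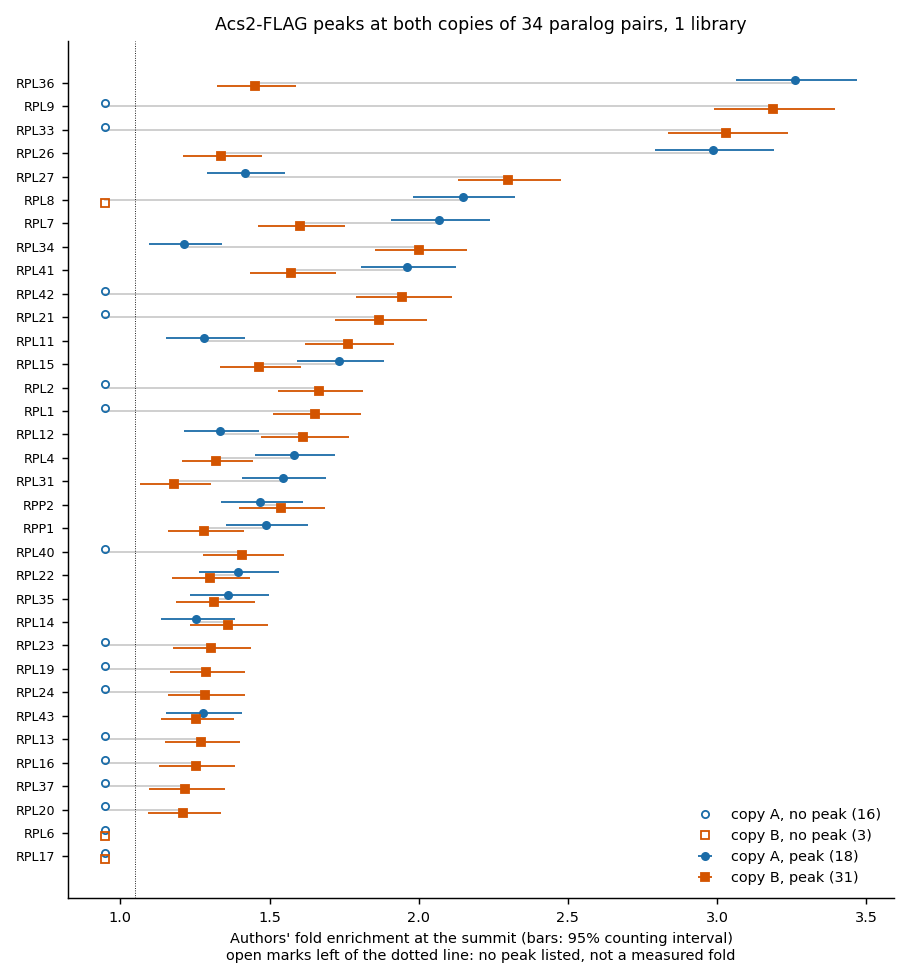
Authors' fold enrichment of the strongest Acs2-FLAG peak (horizontal axis) at copy A and copy B of 34 of the 35 large-subunit paralog pairs, in 1 library, with 95% counting intervals; open marks stand for no listed peak and not for a measured fold. The 16 open circles against 3 open squares show the copies without a peak, and the widest gaps between copies with peaks are those of RPL36 and RPL26.

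Of the 18 pairs with a peak at both copies, the fold was higher at A in 11 and at B in 7. The counting intervals lay apart in 10 pairs and overlapped in 8. In 8 of the 10, at least 1 copy had its summit outside the gene, and the other 2 were RPL12 and RPL4. The widest ratios were 2.25 at RPL36 (3.26 at A, 1.45 at B) and 2.23 at RPL26 (2.99 at A, 1.34 at B), followed by 1.65 at RPL34 (1.21 at A, 2.00 at B) and 1.62 at RPL27 (1.42 at A, 2.30 at B). At each of these 4 pairs, the higher copy had its summit in a neighbouring RNA or coding gene. RPL11 (ratio 1.38), RPL31 (1.31), RPL7 (1.29) and RPL41 (1.25) came next.

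In the 10 pairs with both summits inside the genes, the copies were closer. A was higher in 6 and B in 4, and the intervals overlapped in 8. RPL12 had 1.34 (1.21 to 1.47) at A and 1.61 (1.47 to 1.76) at B, and RPL4 had 1.58 (1.45 to 1.72) at A and 1.32 (1.21 to 1.45) at B. Small ratios were 1.02 at RPL43 (1.28 and 1.25), 1.03 at RPL35 (1.36 and 1.31) and 1.05 at RPP2 (1.47 and 1.54). Overlapping intervals do not show that the copies were alike.

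Small-subunit genes, described by the same rule, had a peak at 38 of 56 (67.9%, exact interval 54.0 to 79.7), which overlaps the interval of the large-subunit share. Their median fold was 1.41, and 1.35 where the summit lay inside the gene. The highest were RPS8A at 2.05, with the summit 334 bp past the end and 1 bp from the snoRNA gene SNR56, and RPS14B at 2.03, whose peak also met its neighbour RPS22A. A snoRNA or tRNA gene held the summit at 1 of the 56.

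**Figure D4:**
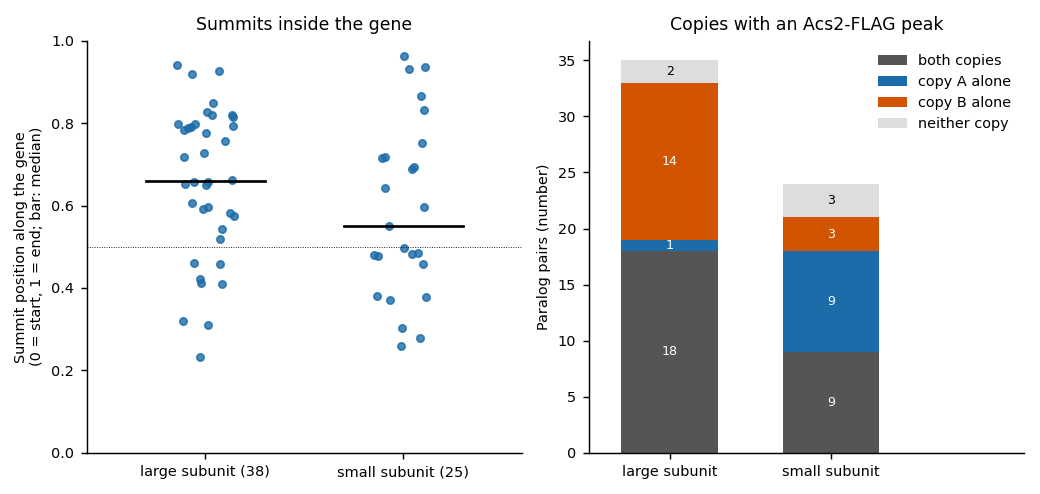
Left, position of the summit along the gene (vertical axis, 0 at the start and 1 at the end) for the 38 large-subunit and 25 small-subunit genes with the summit inside, each point a gene and each bar a median (0.66 and 0.55). Right, number of paralog pairs with a peak at both copies, at A alone, at B alone or at neither, with 14 B alone and 1 A alone in the large subunit against 3 and 9 in the small.

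Of 10 chosen regulators of ribosomal protein genes, none had a peak, against 20.6% of all coding genes. They were RAP1, FHL1, IFH1, SFP1, HMO1, CRF1, ABF1, REB1, SCH9 and TOR1, and no untagged peak met them either. Of 15 genes for chaperones and assembly factors of the large subunit, 3 were met by a peak. SYO1, whose protein imports the proteins of RPL5 and RPL11 into the nucleus together, had 1.26 (1.14 to 1.40) with the summit in its upstream 500 bp. TIF6, for a factor that keeps the subunits apart, had 1.16 (1.05 to 1.29) inside the gene. PUF6 had 1.27 (1.15 to 1.40), with the summit in ITR1, an inositol transporter gene. The 3 of 15 is close to the same 20.6%, so that count does not set the assembly genes apart from coding genes in general. The 0 of 10 regulators is below that share but was not tested, and 10 genes are too few to set that list apart.

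The untagged immunoprecipitate had no peak in the region of any of the 81 genes, nor at the 56 small-subunit genes, while 0.533% of all coding genes had one. The nearest lay 860 bp past the region of RPL25, in MDH2, with a fold of 1.28 (1.13 to 1.44) against 2.63 at the Acs2-FLAG peak over both genes. RPL25 is the member whose Acs2-FLAG peak shares bases with an untagged peak. A missing untagged peak does not measure the background. At the lowest background in the untagged list, 198.4 fragments, the lowest −log10 p listed there, 3.85, corresponds to a fold of 1.26. Smaller enrichment was not detectable at that background, and 7 members had an Acs2-FLAG fold below 1.26.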

How the data were processed

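Per the labels, chromatin of an untagged and an Acs2-FLAG strain was sequenced as input and after precipitation with FLAG M2 antibody, 1 library each. The submitters' processing notes name Trimmomatic, BWA, Picard, MACS2 and build R64; the sources used here give no settings, duplicate handling, total reads or treatment of reads that map to several places. The authors deposited 1 narrowPeak list per immunoprecipitate, and per the file headers each was set beside the input of its own strain, so peaks were called per library. The deposited fold is a ratio at the summit over local background. The deposited −log10 p and −log10 q belong to the summit, and the deposited score repeats the −log10 q and was not used.

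Genes came from a RefSeq table of 6477 genes (R64), with strand from the systematic name. Starts and ends of coding genes in it appear to be those of the coding sequence. The 19 mitochondrial coding genes were left out. Chromosome names were checked on tRNA genes. A gene had a peak when at least 1 bp of the interval met its region, and the highest fold stood for it. Summits were assigned to a snoRNA or tRNA gene first, then to the own gene, another coding gene, the upstream 500 bp and beyond the end. Fragment counts n were solved from fold = (n + 1)/(background + 1) and the Poisson p, and were whole within 0.05 at 907 of 912 Acs2-FLAG and 30 of 34 untagged peaks; 95% Poisson intervals were scaled to the fold. They cover counting error and say nothing of the spread between cultures. With 1 library a group, no test was run. Named genes are the 12 highest folds, summits in RNA genes, genes without a peak, single-copy and stalk genes, and pairs with 1 peak or with the widest or narrowest ratios; other members are given by their fold. The values of 1 member and of its pair are not reported here, though they enter the counts. Members and lists were chosen with earlier results of these data known. Planned counts of promoter motifs and protein identity were not run, since no sequences were used here. The overlap and solving steps were tested on simulated data. The scripts ran on scipy 1.17.1, pandas 2.3.3 and numpy 2.4.6 under Python 3.11.15, and figures were drawn with matplotlib 3.10.9.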

Additional observations from a re-analysis of the deposited data

How the results depend on the processing

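Counts were repeated under 10 alternatives chosen for the region, the overlap and the peaks used. Of 73 values, 63 stayed within 1.5 times the reported count or within the interval of the median (1.36 to 1.60). Some of the 63 could not move. The untagged count of 0 cannot rise in a smaller region or under a stricter cut. Summits inside the gene are all kept when the summit must lie in the region. The tally is therefore no measure of stability. With the 500 bp upstream alone, 29 large-subunit genes had a peak, 4 pairs had peaks at both copies with A higher in 3, the summit lay in the gene past its midpoint at 7 genes and in a snoRNA or tRNA gene at 3, 17 small-subunit genes had a peak, and the median fold was 1.61. With the summit required in the region, 11 pairs had peaks at both copies with A higher in 7, and 1 gene had its summit in a snoRNA or tRNA gene. These changes follow from the smaller region or stricter overlap. With a −log10 q of at least 5, 50 large-subunit and 30 small-subunit genes had a peak. Without peaks at tRNA and snoRNA genes, 58 large-subunit genes did. Shares of all coding genes under these settings are not given here. The split of pairs with 1 peak, 14 at B and 1 at A, was 12 and 3 with the gene body alone, with the upstream region alone and with the stricter q, and 13 and 2 with the summit in the region. No paired analysis was possible because each group holds 1 library. The lack of replicates, the calling limit near a fold of 1.16 and the unknown handling of near-identical copies limit every value.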
